A study of Mus musculus with 18 samples.

Results

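The 7 genes described here, Kctd14, Rhobtb2, Sema7a, Hs3st1, Prrg1, Acot13 and Hs1bp3, had lower RNA after anti-IgD in B cells of mice given vehicle and higher RNA after anti-IgD in B cells of mice given the BTK inhibitor PF-303. They were selected on the same 2 responses in the same arrays, so their values in these responses are a description and carry no test. They are 7 of 18193 genes named on the array and are read by 15 of its 45037 probe sets. RNA was measured on Affymetrix Mouse Genome 430 2.0 arrays in CD23+ B lymphocytes, largely follicular B cells, from spleens of C57BL/6J mice. Mice were injected with vehicle or PF-303, and 2 h later received PBS or anti-IgD, an antibody that binds the IgD form of the B cell receptor and triggers it; cells were taken 2 h after that. Of the mice given vehicle, 4 samples were from PBS and 4 from anti-IgD; of those given PF-303, 5 samples were from PBS and 5 from anti-IgD. Age, and whether each sample came from a separate mouse, are not given in the sources used here, so the p-values reflect sample-to-sample spread, which may be technical in part.

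BTK is the tyrosine kinase that passes the signal of the crosslinked B cell receptor to phospholipase C gamma and from there to calcium, NFAT, protein kinase C and NF-kB. Receptor crosslinking also starts BTK-independent branches through SYK, LYN and PI3 kinase, so an inhibited cell can still receive part of the signal. The 7 genes belong to different pathways. Kctd14 and Rhobtb2 encode proteins with BTB domains, a fold by which many proteins bind the ubiquitin ligase scaffold cullin 3. Sema7a, Hs3st1 and Prrg1 encode a membrane-anchored guidance cue, a sulfotransferase that modifies heparan sulfate and a membrane protein with a Gla domain. Acot13 encodes an acyl-CoA thioesterase, and Hs1bp3 a protein that binds HS1, an actin-regulating substrate of the kinases at the B cell receptor.

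The promoters of Sema7a and Hs3st1 are shown because these genes changed in the same directions while their products share no pathway. Each is the 250 bases before the RefSeq transcription start (GRCm38.p6), 5′ to 3′ on the gene's strand, with CpG dinucleotides in capitals. Sema7a lies at chr9:57939862-57940111 on the plus strand and Hs3st1 at chr5:39644632-39644881 on the minus strand.
Sema7a: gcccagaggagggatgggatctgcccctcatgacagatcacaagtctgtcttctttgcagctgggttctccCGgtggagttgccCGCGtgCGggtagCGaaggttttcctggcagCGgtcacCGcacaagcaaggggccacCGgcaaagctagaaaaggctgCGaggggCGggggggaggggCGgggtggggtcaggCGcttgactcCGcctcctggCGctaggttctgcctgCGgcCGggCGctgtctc
Hs3st1: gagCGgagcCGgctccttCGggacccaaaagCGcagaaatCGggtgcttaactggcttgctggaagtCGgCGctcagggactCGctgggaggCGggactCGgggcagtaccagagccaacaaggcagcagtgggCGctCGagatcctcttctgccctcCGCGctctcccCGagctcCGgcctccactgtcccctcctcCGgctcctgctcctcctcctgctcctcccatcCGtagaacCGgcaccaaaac
The Sema7a window held 17 CpG and was 66.4% G or C, and the Hs3st1 window held 19 CpG and was 66% G or C, against medians of 6 CpG and 52.4% over 32851 windows of 27025 genes. RefSeq windows were matched for 4 of the 7 genes, Sema7a, Hs3st1, Prrg1 and Hs1bp3, in 5 windows. The Hs1bp3 window held 16 CpG and was 63.2% G or C. The Prrg1 windows, which overlap each other, held 3 and 10 CpG and were 54.8% and 62% G or C. In these 5 windows, on both strands, none of 8 motifs of receptor-responsive or quiescence factors was present. The motifs, with the share of all windows that hold each, were EGR (GCGTGGGCG, 0.536%), AP-1 (TGANTCA, 6.75%), CRE (TGACGTCA, 1.55%), NF-kB (GGGAANTTC, 0.907%), NFAT (TGGAAA, 18.6%), FOXO (TGTTTAC, 3.17%), E-box (CACGTG, 6.02%) and ETS (CCGGAAGT, 2.88%). No match says only that these letters are not in these windows.

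Defining B cell markers were present on all arrays. The summed signal of 6 B cell markers (Cd79a, Cd79b, Ms4a1, Pax5, Cd22 and Cd74) ran from 20935 to 44714 in the other groups and from 14507 to 18831 in anti-IgD with vehicle, the group in which the 7 genes were also lowest or near lowest. With limma, 4 of the 6 fell with anti-IgD in the vehicle groups and 1 fell under PF-303. None had the pattern of the 7 genes, which 0.297% of all genes tested had. The 4 markers of CD23-positive follicular B cells (Fcer2a, Cr2, Cd55 and Cxcr5) summed to 6048 to 6686 in anti-IgD with vehicle and 6757 to 9532 in the other groups. With anti-IgD 3 were called lower in vehicle and 2 under PF-303, beside 30.6% and 19.1% of all genes. Of 4 tested plasma cell markers, 1 was called higher and 2 lower in each response. In each, 1 of 4 germinal centre and 1 of 2 stromal and endothelial markers fell. The T cell markers Cd3e and Cd4 were at or under 15.2, the median of all signals, on every array, and the sum over 6 T cell markers was 42.8 to 119. Macrophage markers summed to 829 to 2934 with overlapping ranges, and none of the 6 was called in either response to anti-IgD. The 6 markers of marginal zone and B1 B cells summed to 1518 to 1901 in anti-IgD with vehicle and to 2094 to 3343 in the other groups. They did not move together: with anti-IgD 1 was called higher and 3 lower in vehicle, and 2 higher and 2 lower under PF-303. Of the 6, 1, Dtx1, had both calls of the 7 genes (-0.31 and 0.61). Under PF-303, 1 of 3 tested NK cell markers (Prf1, 0.37 ± 0.13 (SE)) and 1 of 3 tested neutrophil markers (S100a8, 1.07 ± 0.40) were called higher with anti-IgD, beside 14.7% of all genes. The other tested markers of these lists were not called under PF-303, and none was called in vehicle. The part of the B cell, follicular, plasma cell, germinal centre, stromal, marginal zone, NK cell and neutrophil markers in the results was not tested. In bulk samples fewer cells of a type and less RNA per cell cannot be told apart. Signals of the spike-in controls were over 2 times their median in 6 arrays, none of them in anti-IgD with vehicle; values without these arrays are given where a call was lost.

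Signals are the deposited MAS5 intensities on a linear scale. Changes are differences of group means of log2(signal + 16) with the standard error of the limma fit, and a gene was called at a Benjamini-Hochberg adjusted p under 0.05 over 11104 genes. All 7 genes were called lower with anti-IgD in the vehicle groups, as were 30.6% of all genes tested, and all 7 were called higher with anti-IgD under PF-303, as were 14.7%. Both calls together were made for 33 genes, 0.297% of those tested, and the choice of the 7 genes fixes these counts. The median change of the 7 genes was -0.59 with anti-IgD in vehicle and 0.47 under PF-303, beside medians of -0.13 and -0.05 over all genes.

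**Figure D1:**
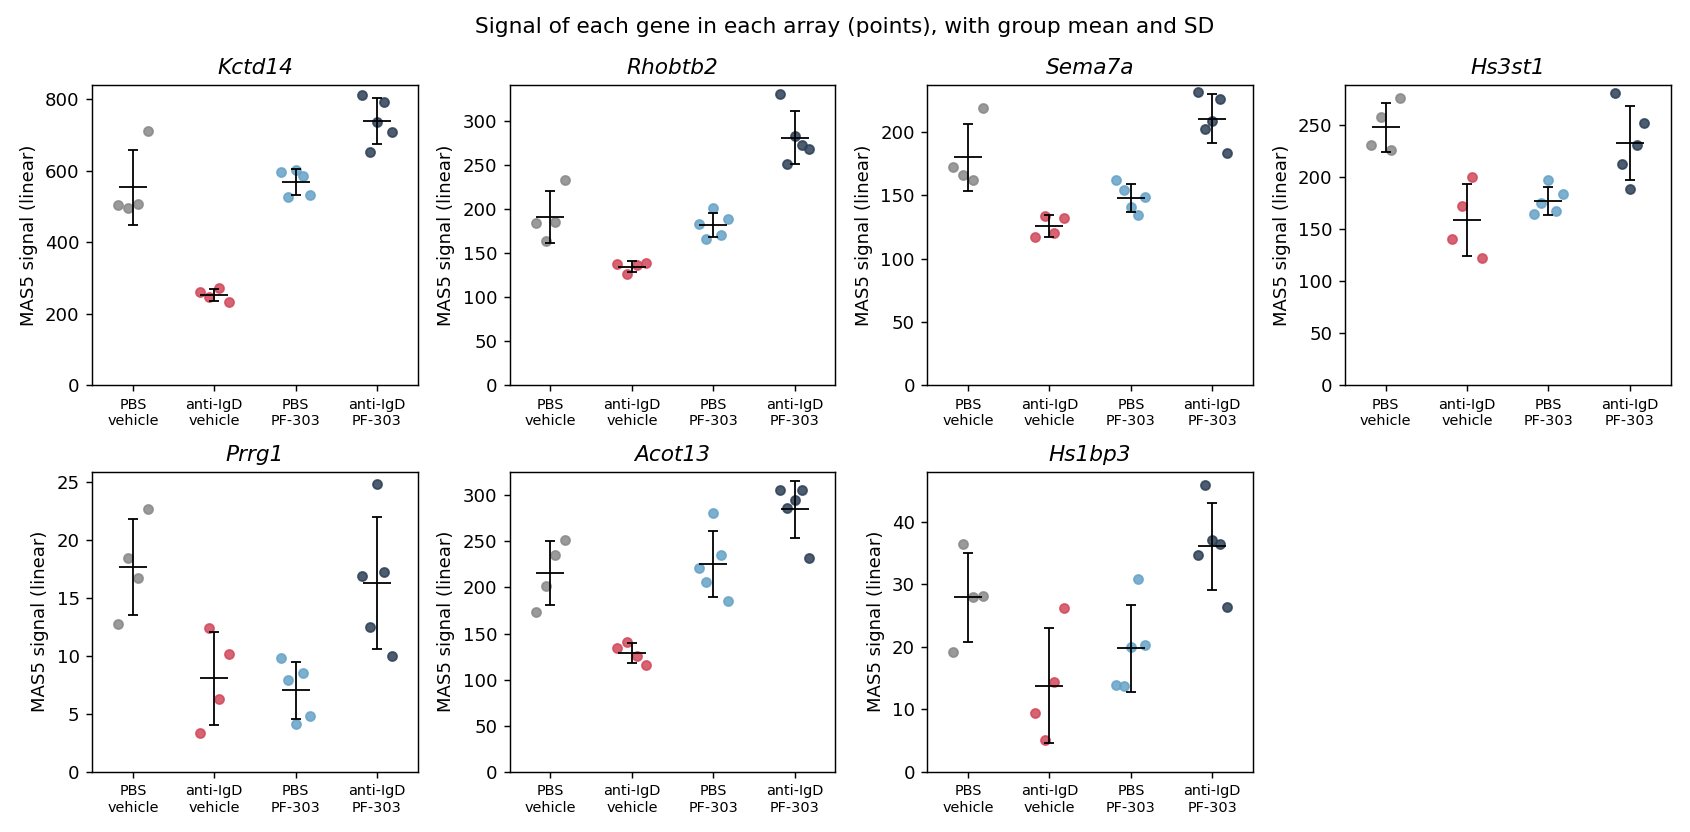
MAS5 signal (linear, y axis) of each of the 7 genes in each of the 18 arrays (points) in the 4 groups (x axis), with horizontal bars for group means and vertical bars for SD. In each panel the anti-IgD mean lies below the PBS mean with vehicle and above it with PF-303, and Prrg1 and Hs1bp3 lie at signals of 46.0 or less.

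Of the BTB genes, Kctd14 had its lowest mean in anti-IgD with vehicle and its highest in anti-IgD with PF-303. In PBS with vehicle its signals were 503, 494, 506 and 710.1, and in anti-IgD with vehicle 261, 246, 271 and 233. In PBS with PF-303 they were 597, 526, 602, 584 and 530.5, and in anti-IgD with PF-303 they were 811, 652, 736, 791 and 707. At the probe set used, every anti-IgD array with vehicle was below every other array. Every anti-IgD array with PF-303 was there above every PBS array with PF-303. The anti-IgD arrays with PF-303 overlapped those of PBS with vehicle only through the PBS array at 710.1. The log2 change with anti-IgD was -1.07 ± 0.10 (SE) in vehicle and 0.37 ± 0.09 under PF-303.

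Kctd14 was read by 4 probe sets, and all 4 gave the same directions. The probe set used has an _x_at name, a type that may hold probes matching other transcripts, so its level is less certain than its direction. The other 3 gave -0.77 ± 0.11, -0.87 ± 0.09 and -0.87 ± 0.12 (SE) in vehicle. Under PF-303 these 3 gave 0.28 ± 0.10, 0.29 ± 0.08 and 0.49 ± 0.11. At the probe sets with 0.28 and 0.29 the PF-303 groups overlapped, through the anti-IgD arrays at 251 and 290. The PBS with vehicle array at 710.1 was the lowest of its group at these, with 193 and 234. At the probe set with 0.49 the PF-303 groups were apart, and that array was the highest of its group, with 192.

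Rhobtb2, which encodes a protein with BTB domains, was at its lowest in anti-IgD with vehicle and at its highest in anti-IgD with PF-303. Its signals were 184, 163, 185 and 233 in PBS with vehicle and 138, 126, 136 and 139 in anti-IgD with vehicle. They were 183, 166, 201, 171 and 188 in PBS with PF-303 and 331, 251, 284, 272 and 268 in anti-IgD with PF-303. At the probe set used, anti-IgD with vehicle was below all other arrays and anti-IgD with PF-303 above all other arrays. At the probe sets used, Rhobtb2 was the 1 gene of the 7 whose anti-IgD arrays with PF-303 were all above PBS with vehicle. This holds for 9.21% of all genes. Kctd14 was also apart in this way at its probe sets with 0.29 and 0.49 under PF-303, which were not the one used. The change of Rhobtb2 was -0.45 ± 0.10 (SE) in vehicle and 0.58 ± 0.09 under PF-303. Its second probe set gave -0.35 ± 0.13 and 0.48 ± 0.12. There anti-IgD with vehicle (72.2 to 123) overlapped PBS with vehicle (from 112) and PBS with PF-303 (from 115). Anti-IgD with PF-303 was above all other arrays there too.

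Sema7a encodes a semaphorin held in the membrane by a GPI anchor, which binds integrins and plexin C1. Its signals were 172, 166, 162 and 219 in PBS with vehicle and 117, 134, 120.3 and 132 in anti-IgD with vehicle. They were 162, 154, 141, 135 and 149 in PBS with PF-303 and 232, 203, 209, 227 and 184 in anti-IgD with PF-303. Both pairs of ranges were apart in opposite directions, and PBS with PF-303 lay just below PBS with vehicle. The change was -0.46 ± 0.10 (SE) in vehicle and 0.47 ± 0.09 under PF-303. Its other probe set was over 15.2 in 1 array only and gave 0.04 ± 0.17 and 0.26 ± 0.15.

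Hs3st1, which encodes the enzyme that adds the 3-O-sulfate of the antithrombin-binding site of heparan sulfate, was low in the PBS arrays with PF-303 as well as in the anti-IgD arrays with vehicle. Its signals were 231, 258, 226 and 276 in PBS with vehicle, and 140.2, 172, 200.02 and 122 in anti-IgD with vehicle. They were 164, 175, 197, 167 and 183 in PBS with PF-303, and 280.2, 212, 188, 231 and 251 in anti-IgD with PF-303. PBS with vehicle was above both of these low groups without overlap, while the PF-303 groups overlapped at the array at 188. The change was -0.61 ± 0.12 (SE) in vehicle and 0.35 ± 0.11 under PF-303, and the second was no longer called without anti-IgD replicate 1 of the PF-303 group (0.29).

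Prrg1, which encodes a single-pass membrane protein with a Gla domain, was near the background of the array. Its signals were 12.8, 18.4, 16.7 and 22.7 in PBS with vehicle and 3.36, 12.4, 6.30 and 10.1 in anti-IgD with vehicle. They were 9.80, 7.93, 4.11, 8.51 and 4.82 in PBS with PF-303 and 16.9, 12.4, 24.8, 17.2 and 9.95 in anti-IgD with PF-303. The 6 arrays over 15.2 were all in PBS with vehicle and anti-IgD with PF-303, so Prrg1 passed the filter only through the groups in which it was high. The change was -0.49 ± 0.17 (SE) in vehicle and 0.48 ± 0.15 under PF-303, and 2 other probe sets, over 15.2 in 2 arrays each, gave -0.01 ± 0.21 and -0.01 ± 0.23 in vehicle and -0.23 ± 0.19 and 0.10 ± 0.20 under PF-303. The call in vehicle was lost without PBS replicate 4 (-0.42) or without anti-IgD replicate 1 (-0.39) or 4 (-0.46), and that under PF-303 without anti-IgD replicate 3 (0.39); with the spike-in signal as a covariate the value in vehicle was -0.41, not called. With an offset of 1 in place of 16 the changes were -1.14 and 1.10, and with 64 they were -0.18 and 0.17.

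Acot13 encodes a thioesterase that splits long-chain acyl-CoA into fatty acid and coenzyme A. Its signals were 174, 202, 235 and 252 in PBS with vehicle and 134, 140.4, 125 and 115 in anti-IgD with vehicle. They were 221, 206, 281, 235 and 186 in PBS with PF-303 and 306, 287, 294, 305 and 232 in anti-IgD with PF-303. Anti-IgD with vehicle was below every other array, while the PF-303 groups overlapped through the anti-IgD array at 232 and the PBS arrays at 235 and 281. The change was -0.67 ± 0.12 (SE) in vehicle and 0.32 ± 0.11 under PF-303. The rise lost its call without PBS replicate 2 (0.29) or 5 (0.26), or without anti-IgD replicate 1 (0.30) or 4 (0.30), in the PF-303 groups.

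Hs1bp3 encodes a binding partner of HS1. Its signals were 19.1, 36.4, 28.0 and 28.1 in PBS with vehicle and 9.45, 5.07, 14.4 and 26.3 in anti-IgD with vehicle. They were 13.8, 13.7, 19.9, 30.9 and 20.4 in PBS with PF-303 and 34.8, 46.0, 37.0, 36.4 and 26.4 in anti-IgD with PF-303. Hs1bp3 was the 1 gene of the 7 whose ranges overlapped in both responses, through the anti-IgD array at 26.3 with vehicle and the arrays at 30.9 and 26.4 with PF-303. The change was -0.59 ± 0.20 (SE) in vehicle and 0.55 ± 0.18 under PF-303, and a second probe set, over 15.2 in 1 array, gave 0.18 ± 0.15 and 0.61 ± 0.14. The call in vehicle was lost without PBS replicate 2 (-0.50) or anti-IgD replicate 2 (-0.44), and that under PF-303 without anti-IgD replicate 2 (0.49). With an offset of 1 the changes were -1.14 and 0.88, and with 64 they were -0.24 and 0.26.

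**Figure D2:**
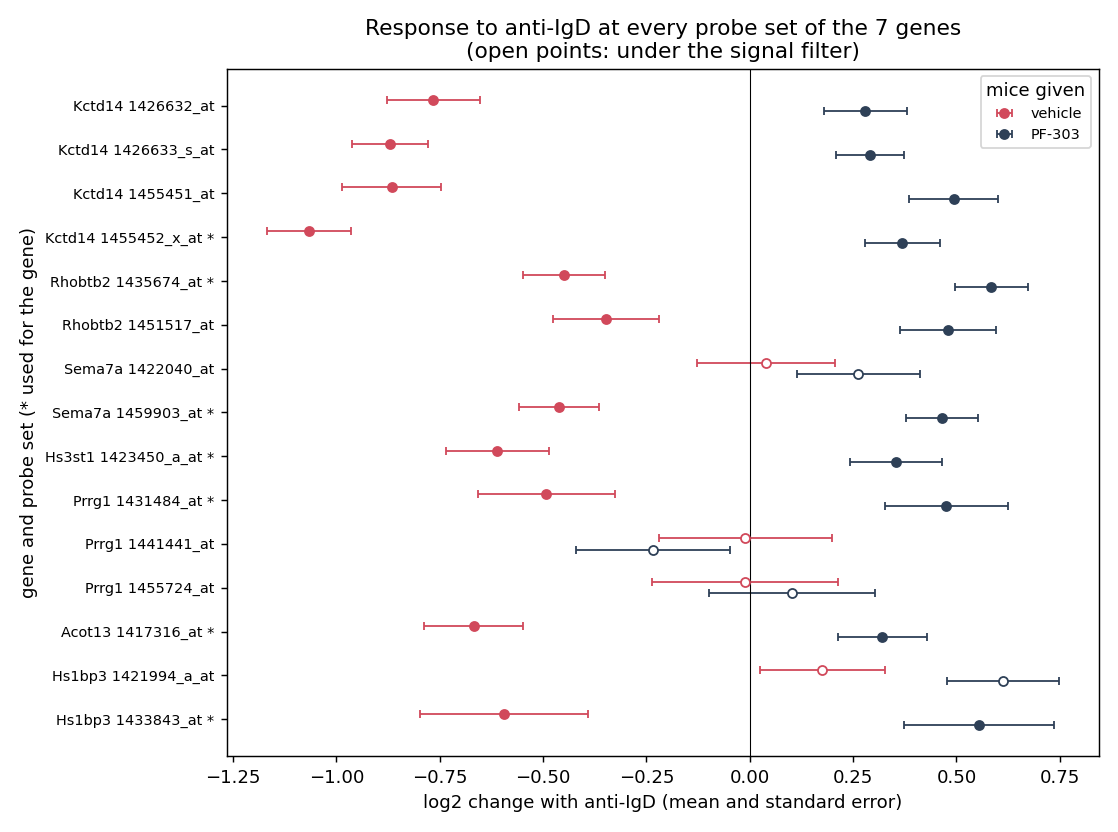
Log2 change with anti-IgD (x axis, mean and standard error) at each of the 15 probe sets of the 7 genes (y axis; an asterisk marks the one used), for mice given vehicle (red) and PF-303 (dark blue); open points are the 4 probe sets under the signal filter. All 11 filled probe sets lie below 0 with vehicle and above 0 with PF-303, and the open ones lie nearer to 0 with vehicle.

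At the probe sets used, the PBS arrays with vehicle were all above the anti-IgD arrays with vehicle for 6 of the 7 genes, beside 27.2% of all genes. Under PF-303 the anti-IgD arrays were all above the PBS arrays for 4, beside 11.2%. Both held for Kctd14, Rhobtb2, Sema7a and Prrg1, beside 0.189% of all genes; these are the values that chose the genes, and Prrg1 passed the filter only through its 2 high groups. The difference between the 2 responses was called for all 7, beside 9.78% of all genes, and follows from the choice of the genes. With the position row, described further on, as a block it was not called for Prrg1 (0.84) or Hs1bp3 (0.90). The difference was 1.44 ± 0.14 (SE) for Kctd14, 1.15 ± 0.26 for Hs1bp3, 1.03 ± 0.13 for Rhobtb2, 0.99 ± 0.16 for Acot13, 0.97 ± 0.23 for Prrg1, 0.97 ± 0.17 for Hs3st1 and 0.93 ± 0.13 for Sema7a. Below Kctd14, neighbours in this order differed by less than 1 standard error. The order holds for the offset of 16: with an offset of 1 the difference was 2.24 for Prrg1 and 2.02 for Hs1bp3, above the 1.49 of Kctd14.

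The 33 genes with both calls set these values in context. The next below Sema7a in the order of the difference was Gpat3 (0.92 ± 0.15), and S1pr1 (1.32 ± 0.15), E330020D12Rik (1.22 ± 0.11), Lgmn (1.03 ± 0.15) and Ciita (0.97 ± 0.17) lay among the 7 without being members. The smallest differences were those of Entpd5 (0.49 ± 0.09) and Snx30 (0.47 ± 0.11). S1pr1 encodes the sphingosine phosphate receptor by which lymphocytes leave lymphoid tissue, and Ciita the coactivator of MHC class II genes. Of the 3394 genes called lower with anti-IgD in vehicle, 1835 were also lower under PF-303, 1526 were not called there and 33 were higher. The opposite pattern, higher in vehicle and lower under PF-303, was found for 6 genes. The call count depended on scaling: 13 genes had the pattern when all arrays were shifted to one median, among them all 7.

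**Figure D3:**
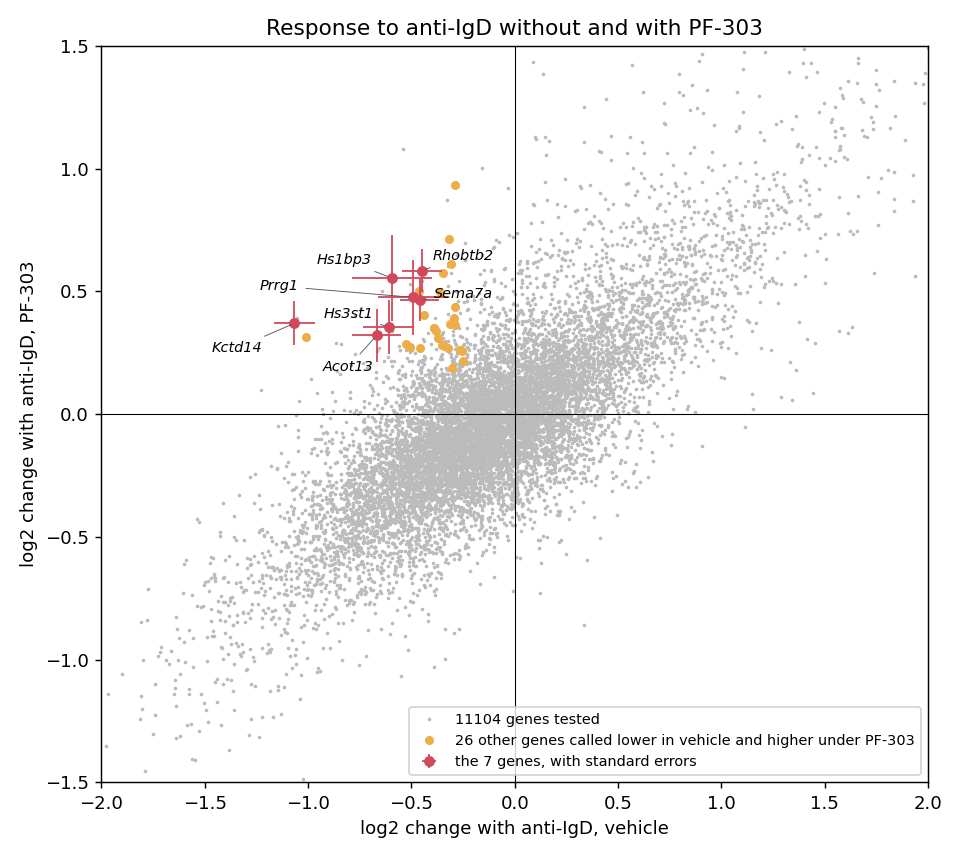
Log2 change with anti-IgD in mice given vehicle (x axis) against that in mice given PF-303 (y axis) for 11104 genes (grey), the 26 other genes with both calls (orange) and the 7 genes (red, with standard errors); 96 genes lie outside the axes. The 7 genes lie in the upper left quadrant, with Kctd14 farthest left at -1.07 and Rhobtb2 highest at 0.58.

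PF-303 against vehicle used the same arrays as the choice of the genes and is also given as a description. In PBS-treated mice none of the 7 was called, beside 0.747% of all genes. The values there were 0.05 ± 0.10 (SE) for Kctd14, -0.06 ± 0.09 for Rhobtb2 and 0.06 ± 0.11 for Acot13. For Kctd14 this value rests on the probe set used and on the PBS array at 710.1: it was 0.17 without that array, and the other 3 probe sets gave 0.19 ± 0.11, 0.15 ± 0.09 and 0.17 ± 0.11. For Sema7a, Hs3st1 and Prrg1 the PBS arrays with PF-303 were all below the PBS arrays with vehicle, which holds for 2.42% of all genes. The changes were -0.25 ± 0.09 for Sema7a, -0.45 ± 0.12 for Hs3st1 and -0.55 ± 0.16 for Prrg1. Prrg1 passed the filter only through PBS with vehicle and anti-IgD with PF-303, so its separation is set in part by the filter. The Sema7a value was -0.16 without PBS replicate 4 of the vehicle group and -0.12 when arrays of high spike-in signal were left out. Hs1bp3 gave -0.30 ± 0.19 with overlapping ranges.

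With anti-IgD, PF-303 arrays were higher than vehicle arrays in 6 of the 7 by the call, beside 19.8% of all genes. The change was 1.49 ± 0.10 (SE) for Kctd14, 1.05 ± 0.11 for Acot13, 0.98 ± 0.09 for Rhobtb2, 0.84 ± 0.19 for Hs1bp3, 0.68 ± 0.09 for Sema7a and 0.52 ± 0.12 for Hs3st1. Prrg1, at 0.42 ± 0.16, was not called, but was in 7 of 28 alternative settings, such as quantile normalization (0.45) or without anti-IgD replicate 2 of the vehicle group (0.51). With the position row as a block Hs1bp3 lost the call (0.68). The PF-303 arrays were all above the vehicle arrays for 5 genes, beside 17.5% of all genes, and the ranges overlapped for Hs3st1 and Prrg1.

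Set against PBS with vehicle, anti-IgD with PF-303 was called higher for 3 of the 7, beside 12.0% of all genes. These were Rhobtb2 (0.53 ± 0.09, SE), Kctd14 (0.42 ± 0.10) and Acot13 (0.38 ± 0.11). Acot13 lost this call without PBS replicate 1 of the vehicle group (0.29). The other 4 were at 0.25 ± 0.19 for Hs1bp3, 0.21 ± 0.09 for Sema7a, -0.07 ± 0.16 for Prrg1 and -0.09 ± 0.12 for Hs3st1. Sema7a was called without PBS replicate 4 of the vehicle group (0.31) and with arrays shifted to one median (0.32).

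The genes whose values over the 18 arrays were most like each member were found as those with the smallest root mean square difference in log2, each gene centred on its own mean. For Kctd14 they were S1pr1 (0.18), Tmem108 (0.18) and Acot13 (0.22), against a median of 0.57 over all genes. For Rhobtb2 they were Lgals8 (0.11), Dtx1 (0.13) and Psap (0.15), against 0.44. For Sema7a they were Tram1 (0.12), Ciita (0.13) and Dtx1 (0.13), against 0.37. Dtx1, a regulator of Notch signalling, was thus near both Rhobtb2 and Sema7a. Rcbtb1 (0.19), Slc15a4 (0.19) and Ap5m1 (0.20) were nearest to Hs3st1, against 0.38. Cnn2 (0.12), Emid1 (0.13) and Coro1b (0.16) were nearest to Acot13, against 0.45; Cnn2 and Coro1b encode actin-binding proteins. For the dim genes they were Usf2 (0.18), Trmt44 (0.19) and Ccdc138 (0.19) for Prrg1, against 0.40, and Lpxn (0.25), Lgals8 (0.27) and Glipr1 (0.27) for Hs1bp3, against 0.47. Of these 21 entries, 12 had both calls of the members. Tmem108, Slc15a4, Ap5m1, Usf2, Trmt44, Ccdc138, Emid1, Lpxn and Glipr1 did not, and Tmem108 was at 0.02 under PF-303. Since the members were chosen for their pattern over the same arrays, the likeness of these genes is a description.

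The families and pathways of the 7 genes were followed in 7 lists with the members left out, of which 111 genes were tested. None of the 111 had the pattern of the members, which 0.297% of all genes had, so this count says little about the families. With anti-IgD in vehicle 9 were called higher (8.11%, beside 17.4% of all genes) and 39 lower (35.1%, beside 30.6%). Under PF-303 7 were called higher (6.31%, beside 14.7%) and 14 lower (12.6%, beside 19.1%). The difference between the responses was higher in 12 and lower in 0 by limma, which is 10.8% beside 9.78% of all genes. The count fell to 2 with arrays shifted to one median and to 3 with the position row as a block. The calls of the related genes named below thus depend on the processing. The median difference was 0.15 beside 0.07 over all genes.

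Around Kctd14, 1 of 16 tested KCTD proteins and cullin 3 partners was called for the difference (6.25%, beside 9.78% of all genes). This was Kctd1 (0.46 ± 0.15 (SE), adjusted p = 0.0496). Among 18 semaphorins and receptors, 1 was called besides the excluded Sema7a: Sema4b, which fell by 1.13 in vehicle and was at -0.16 under PF-303 (difference 0.97 ± 0.22, adjusted p = 0.0085). Among 25 heparan sulfate genes, the proteoglycan gene Sdc4 was called; it was at 0.07 in vehicle and rose by 0.56 under PF-303 (difference 0.49 ± 0.14, adjusted p = 0.024). None of 9 Gla and vitamin K genes was called.

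Among 18 genes of acyl-CoA and lipid handling around Acot13, 3 were called (16.7%, beside 9.78% of all genes). Cpt1a, the carnitine transferase that admits fatty acids to mitochondria, fell by 1.38 in vehicle and by 0.75 under PF-303 (difference 0.63 ± 0.17 (SE), adjusted p = 0.021). Acss1 gave a difference of 0.61 ± 0.14 (adjusted p = 0.0093) and Pctp, which encodes the phosphatidylcholine transfer protein, 0.55 ± 0.14 (adjusted p = 0.016). Among 13 genes of HS1 and branched actin around Hs1bp3, 4 were called (30.8%, beside 9.78% of all genes). These were Wipf1 (0.53 ± 0.13, adjusted p = 0.014), Dbnl (0.47 ± 0.14, adjusted p = 0.043), Arpc5l (0.45 ± 0.13, adjusted p = 0.031) and Was (0.43 ± 0.10, adjusted p = 0.0070). None of the 12 had both calls: all but Sdc4 fell in vehicle, and all but Sdc4 stood between -0.78 and 0.19 under PF-303 without a call for a rise.

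The 7 genes lie on 7 different chromosomes, 7 for Kctd14, 14 for Rhobtb2, 9 for Sema7a, 5 for Hs3st1, X for Prrg1, 13 for Acot13 and 12 for Hs1bp3. Of the 14 nearest protein-coding neighbours in RefSeq, 8 were tested and none had both calls, beside 0.297% of all genes. In vehicle 3 of the 8 were called lower, beside 30.6% of all genes. Ints4 beside Kctd14, a subunit of the Integrator complex, was the 1 of the 8 called for the difference, beside 9.78% of all genes. It fell by 0.73 ± 0.10 (SE) in vehicle, was at 0.05 ± 0.09 under PF-303, and differed by 0.79 ± 0.14 (adjusted p = 0.0012 by limma). Ubl7 beside Sema7a and Rab28 beside Hs3st1 were lower with anti-IgD in vehicle by the call, at -0.89 and -0.51. Both were also called lower under PF-303, at -0.38 and -0.24.

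A position code in the sample descriptions, whose meaning the labels do not give, has row letters that hold arrays of several groups. In row C, which held 1 array of each vehicle group, all 7 genes were lower with anti-IgD (-1.03 to -0.21). In rows F and G, with 1 or 2 arrays of each PF-303 group, all 7 were higher (0.21 to 0.94 and 0.11 to 0.73). These are parts of the arrays and responses that chose the genes, so the shared signs within rows are a description and no separate support. With the row as a block 5 of the 7 kept both calls; Prrg1 gave -0.32 and 0.52, and Hs1bp3 gave -0.42 and 0.47, neither called. With the 6 arrays of high spike-in signal left out, 5 also kept both calls; Hs1bp3 was at -0.57 in vehicle and Prrg1 did not pass the filter.

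**Figure D4:**
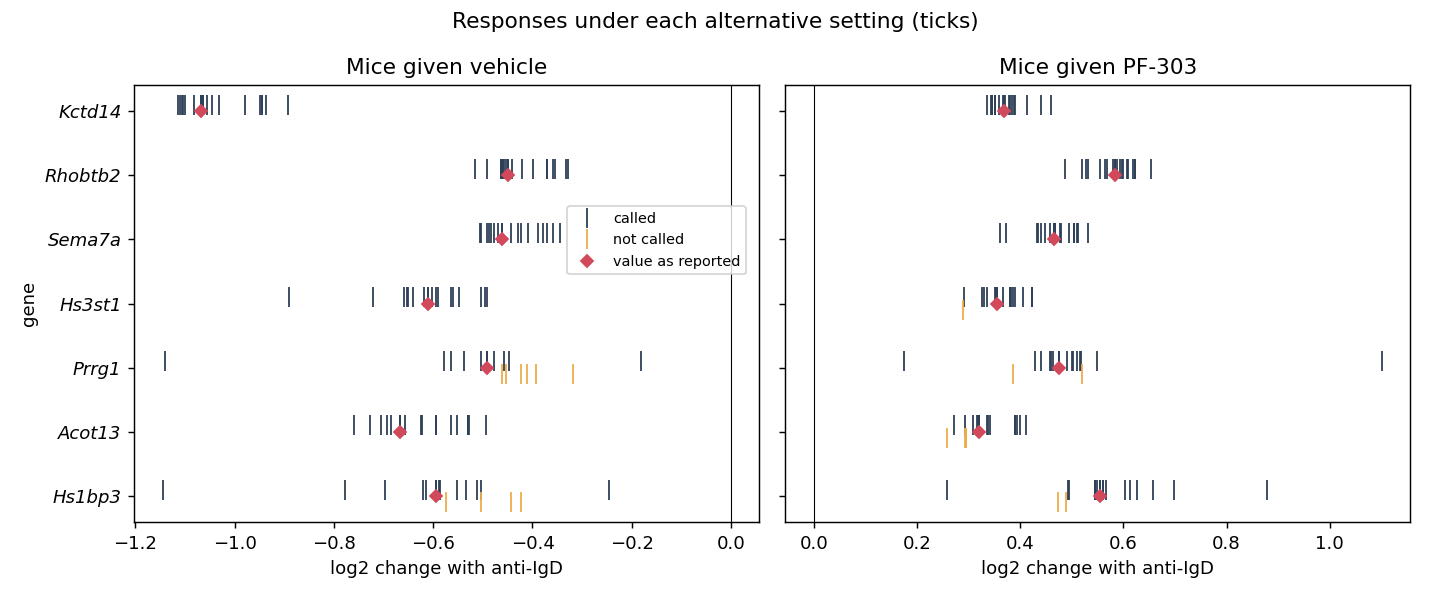
Log2 change with anti-IgD (x axis) of each of the 7 genes (y axis) in mice given vehicle (left) and PF-303 (right); diamonds are the values as reported and ticks those under each of 29 alternative settings, dark where called and orange where not. All ticks keep the sign of the diamond, and those of Kctd14, Rhobtb2 and Sema7a are called under all 29 settings.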

How the data were processed

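RNA from the B cells was labelled from 150 ng per sample with the GeneChip 3' IVT Express kit, per the labels' protocols. The authors deposited 1 MAS5 signal per probe set, a linear intensity, per the submitters' processing notes; the version and settings are not given in the sources used here. All arrays had a 2%-trimmed mean of 99.96 to 99.97, so they had been scaled to one level, which removes differences in total RNA per cell. MAS5 sets matched against mismatched probes, and low signals are noisy.

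Of 45101 probe sets, 64 were controls and 34945 had 1 gene symbol, 932 several and 9160 none in the platform annotation. Symbols were updated through RefSeq (GRCm38.p6); 204 without a match kept the platform symbol. The RefSeq gene table served for names and gene order only. Probe sets with a signal over 15.2 (the median of the whole table) in 4 or more arrays were kept, and the one with the highest mean stood for each gene, which left 11104 genes. Log2(signal + 16) was fitted with limma 3.58.1 in R 4.3.3 (lmFit, eBayes with trend; 1 mean per group, 18 arrays, 6 contrasts, two-sided tests, Benjamini-Hochberg adjustment within each contrast, called at 0.05). The offset of 16 makes changes of dim genes smaller than their signal ratios. The fit was tested on simulated data. Figures were drawn with matplotlib 3.10.9. The number of arrays limits the precision.

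Groups came from the labels. No 2 arrays were copies: log2 differences between arrays had an SD of at least 0.262. Replicate numbers recur between groups; deviations of same-numbered arrays correlated at -0.16 to 0.22 over 24 pairs, so the numbers were not used to pair samples. The members and the lists of related genes and markers were chosen with earlier results of these data known. Genes named are the members, related genes called for the difference (at most 4 per list), the 3 genes most like each member, and those with the largest and smallest difference among genes with both calls (at most 10); neighbours, and some cell type markers, were named in addition. The separate values of 1 of the 7 lists are not reported here. Alternatives were other offsets, no filter, other scalings, the mean of all probe sets that passed the filter, and no trend. The replicate number or position row as a block, the spike-in signal as a covariate, and arrays left out were also used.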

Additional observations from a re-analysis of the deposited data

Results flagged for a closer look

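One array stood apart from the rest of its group in 2 of the 28 combinations of gene and group, and chance gives about 1 in 20. The Kctd14 signal of PBS with vehicle replicate 4 was 710.1; its gap to the next array was 0.946 of the group's range, above Dixon's critical value for 4 arrays. The Acot13 signal of anti-IgD with PF-303 replicate 5 was 232, with a gap of 0.739 of the range, above that for 5 arrays. Without these arrays Kctd14 and Acot13 kept both calls.

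The response to anti-IgD differed between vehicle and PF-303 for each of the 7 genes, which were chosen for it: by 1.44 for Kctd14, 1.15 for Hs1bp3, 1.03 for Rhobtb2, 0.99 for Acot13, 0.97 for Prrg1, 0.97 for Hs3st1 and 0.93 for Sema7a on the log2 scale.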

How the results depend on the processing

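No value of the 7 genes in a called comparison changed sign under 29 alternative settings. Both calls were kept by all 7 genes under offsets of 1 and 64, with arrays shifted to one median, with quantile normalization and without the trend. They were also kept without the filter and with the mean of the probe sets that passed it, but these settings could change little. Without the filter the same probe sets were used, so the changes of all 7 genes were identical. The mean left out the probe sets under the filter, so only the changes of Kctd14 and Rhobtb2 moved. The replicate block kept 6 of the 7 (without Prrg1), gave 34 genes with both calls in place of 33, and called 10 related genes in place of 12. The spike-in covariate also kept 6 (without Prrg1). The 33 genes with both calls became 13 with arrays shifted to one median, a setting that moved the median of all genes in vehicle from -0.13 to -0.03, and 18 with the position row as a block. The 12 related genes called for the difference became 2 with one median, 3 with the position row as a block and 7 when the 6 arrays with high spike-in signal were left out; the cause was not tested. Leaving out each array in turn gave 5 to 7 members, 25 to 36 genes with both calls and 8 to 14 related genes. Prrg1 and Hs1bp3 lie near the background, and their changes move with the offset.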
